A study of Mus musculus with 8 samples.

Results

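Hal, the gene for histidine ammonia-lyase, was much more abundant in tumor-associated macrophages of Colec11–/– mice than in those of WT mice, and the data were read to see whether the genes beside it on chromosome 10 shared that difference. The 10 genes described are Hal, Amdhd1, Lta4h, Snrpf, Ccdc38, Elk3, Cdk17, Ntn4, Nedd1 and Usp44, out of 21051 genes in the deposited tables. Hal was selected on its higher values in these same libraries, so its levels and its fitted fold change are a description and support nothing. The other 9 lie within 766 kb of Hal. Cfap54, which lies between Cdk17 and Nedd1, is not among them and is given with the wider window.

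RNA was sequenced from CD45+F4/80+ cells sorted out of B16 melanomas, with 4 libraries from WT mice (TAM-WT) and 4 from Colec11–/– mice (TAM-KO). The labels give C57BL/6 as the strain of both groups and day 14 after injection of the tumor cells as the time of sampling. B16 is a pigmented mouse melanoma line, and Colec11 encodes collectin-11, a soluble pattern-recognition lectin. By the study's methods the mice were males of 8 to 10 weeks, the controls were WT littermates, and the homozygous knockout had been crossed back to C57BL/6 for 10 or more generations. The depth was even, from 16225362 to 17280267 reads on genes in 7 libraries. The table of TAM-KO replicate 1 lacks a run of genes, among them Hal, Lta4h, Elk3 and Nedd1. For Hal, Hnmt, Aldh1l1, Alox5, Ltc4s, Unc5a and Fgd6 the level in that library was taken from the table of the whole series. It enters their FPKM means, but their fits use 3 TAM-KO libraries. Lta4h, Elk3 and Nedd1 have 3 TAM-KO values in both.

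Histidase, the product of Hal, removes ammonia from histidine to form urocanate, the first step of histidine breakdown. Urocanase (Uroc1), imidazolonepropionase (Amdhd1) and the formiminotransferase Ftcd then carry the carbon on to glutamate and the folate pool. Hal is best known from liver and from the outer layers of the skin, where urocanate accumulates and absorbs ultraviolet light.

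The targeted gene was read first, as a check on the labels. Colec11 had 1, 4, 0 and 1 reads in TAM-WT replicates 1 to 4 and 1 read in each of the 4 TAM-KO libraries. Both groups were too low for these reads to check the genotype. Macrophage markers were abundant in both groups: all 10 had values, Lyz2 was the most abundant, their summed FPKM (fragments scaled to transcript length and library size) ran from 14582 to 16978 in TAM-WT and from 12057 to 14759 in 3 TAM-KO libraries, and 0 of 10 passed an adjusted p of 0.05 in the edgeR quasi-likelihood test, with 4 at an unadjusted p under 0.05 (against 30.7% of all genes) and 0 differentially expressed in DESeq2.

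Hal was low in TAM-WT, with 1.03, 0.58, 1.85 and 0.71 FPKM in replicates 1 to 4, from 44, 25, 79 and 31 reads. In TAM-KO it had 114, 129, 85.9 and 159 FPKM in replicates 1 to 4, from 4986, 5333, 3648 and 6838 reads. The groups did not overlap, and between the highest TAM-WT value and the lowest TAM-KO value lay a factor of 46.4. The mean was 1.04 ± 0.571 FPKM in TAM-WT against 122 ± 30.5 in TAM-KO (SD, n = 4 mice a group), a ratio of 117, and the fitted log2 fold change on 7 libraries was 6.80. In TAM-WT, 34.6% of 16786 genes with a value had a lower mean FPKM than Hal, and in 3 TAM-KO libraries 95.8% did. Hal had 0.00627 to 0.0297 times the FPKM of its upstream neighbour Lta4h in the TAM-WT libraries, and 0.926 to 1.78 times in 3 TAM-KO libraries.

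Of the 10 genes, 8 had enough reads for a fit, and Hal, selected on this contrast, is not counted among the calls. A DEG is a differentially expressed gene with a fold change of 2 or more and a Benjamini-Hochberg adjusted p no higher than 0.05. Among all genes tested, 2.53% were DEGs (314 of 12412), with 1.41% higher in TAM-KO (175) and 1.12% lower (139). Of the 9 neighbours, 7 were tested and 0 were DEGs in edgeR, and 0 passed the adjusted p alone, which 9.81% of all genes did. At an unadjusted p under 0.05, 3 of the 7 passed, against 30.7% of all genes, and among them DESeq2 gave 0 DEGs and limma on log2(FPKM + 0.1) gave 1. In DESeq2 2 of the 7, Amdhd1 and Ccdc38, passed the adjusted p, against 18.2% of all genes. Without TAM-WT replicate 2, 4 of the 7 passed the adjusted p, against 22.2% of all genes, and 1 of them, Amdhd1, was a DEG. The count leaves Ntn4 and Usp44 untested.

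**Figure D1:**
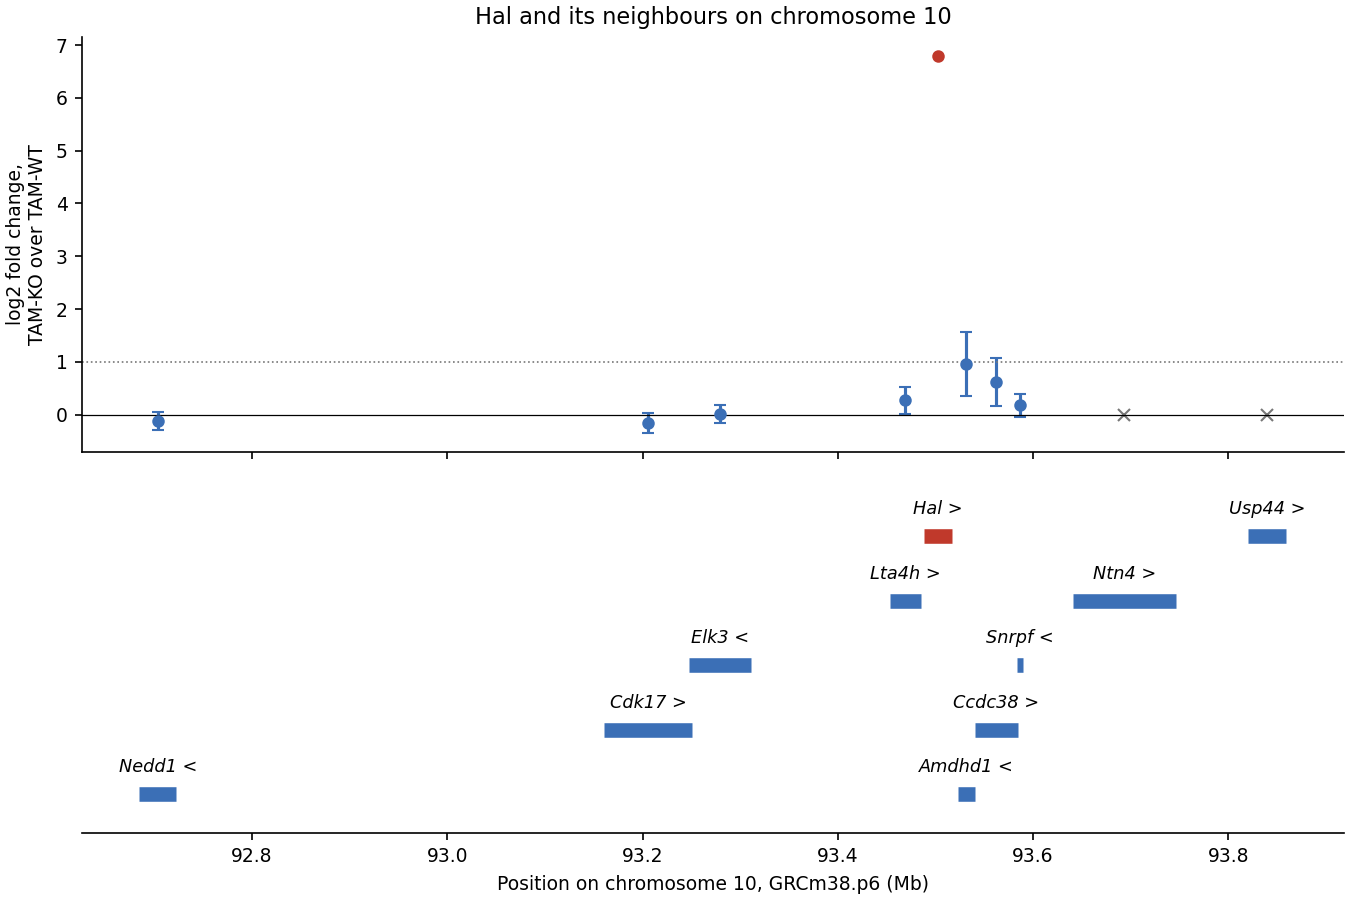
Fitted log2 fold change of TAM-KO over TAM-WT (upper panel, y axis, with the 95% interval as bars for the neighbours and Hal as a value alone) against position on chromosome 10 in Mb (x axis), with the extent of each gene in the lower panel and an arrowhead for its strand; crosses mark genes with too few reads to test and the dotted line marks a fold change of 2. Hal stands at 6.80, and the 7 tested neighbours lie between -0.16 and 0.96.

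Hal lies at chr10:93488768-93516761 on the plus strand of GRCm38.p6 (RefSeq). Lta4h ends 3871 bases upstream of it on the same strand, and Amdhd1, on the minus strand, ends 6576 bases downstream, so that Hal and Amdhd1 point towards each other. Amdhd1 and Ccdc38 start back to back, 477 bases apart, and the 3' end of Ccdc38 overlaps that of Snrpf by 1299 bases. On the far side of Lta4h come Elk3 and Cdk17, which overlap by 3680 bases, then Cfap54, 405 kb from Hal, and then Nedd1, 766 kb from Hal. Ntn4 and Usp44 follow Snrpf, 124 and 303 kb from Hal.

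Amdhd1 (chr10:93523338-93540111), the third enzyme of the same pathway and the nearest gene downstream, had the largest difference among the 7 tested neighbours. It had 1.92, 3.28, 1.35 and 1.43 FPKM in TAM-WT replicates 1 to 4 and 3.38, 4.35, 3.85 and 4.69 FPKM in TAM-KO replicates 1 to 4. The groups did not overlap, but they met closely: TAM-WT replicate 2 lay just below TAM-KO replicate 1. Mean FPKM was 2.00 ± 0.893 against 4.07 ± 0.574 (SD, n = 4 mice a group), with an exact 2-sided permutation p of 0.0286, the smallest that 4 against 4 libraries allow and not adjusted for the number of genes. In the fit over all genes the log2 fold change was 0.96 (SE 0.27, 95% interval 0.35 to 1.56), and the edgeR adjusted p was 0.0526, short of both thresholds. In edgeR the call turned on TAM-WT replicate 2, the TAM-WT library in which Amdhd1 was highest: without it the log2 fold change was 1.31 and the edgeR adjusted p 0.00412, in a range of adjusted p from 0.00412 to 0.147 over 17 alternatives. The call also turned on the method, since with all libraries Amdhd1 passed the adjusted p in DESeq2 (0.0077), in limma on log2(FPKM + 1) (0.0292), in edgeR with no filter (0.0482) and in limma on log2(FPKM + 0.1) (0.0316), where it was a DEG at a log2 fold change of 1.07. In limma the median log2 fold change of all genes was 0.09 on log2(FPKM + 1) and 0.11 on log2(FPKM + 0.1), against 0.00 in edgeR. The FPKM values of Amdhd1, their permutation p and the limma fold change of 1.07 were not corrected for this shift. Hal and Amdhd1 differed in scale: Hal was at 22.3 to 33.9 times the FPKM of Amdhd1 in TAM-KO and at 0.177 to 1.37 times in TAM-WT.

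Ccdc38 (chr10:93540589-93584327) codes for a coiled-coil protein and starts back to back with Amdhd1. It was low in every library, with 0.92, 1.35, 0.64 and 0.7 FPKM in TAM-WT replicates 1 to 4 and 1.55, 1.36, 1.52 and 1.35 FPKM in TAM-KO replicates 1 to 4. As for Amdhd1, TAM-WT replicate 2 was the highest TAM-WT library, and its value equalled the lowest TAM-KO value. The log2 fold change was 0.62 (SE 0.21) with an edgeR adjusted p of 0.0789, and it was 0.86 with an adjusted p of 0.00854 without TAM-WT replicate 2, in a range from 0.00854 to 0.191 over 17 alternatives. With all libraries it passed the adjusted p in DESeq2 (0.0368). The ratio of Amdhd1 to Ccdc38 FPKM was 2.04 to 2.43 in the TAM-WT libraries and 2.18 to 3.47 in the TAM-KO libraries. The transcript length implied by reads and FPKM ran from 1446 to 2048 bases for Amdhd1 over 7 libraries. It ran from 3272 to 3586 for Ccdc38 and from 2517 to 2539 for Hal. The FPKM values and ratios of Amdhd1 carry this spread in length as well.

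Lta4h (chr10:93453396-93484896), upstream of Hal on the same strand, encodes leukotriene A4 hydrolase, which makes leukotriene B4. It was already abundant without the knockout, with 74.6, 92.6, 62.3 and 63.1 FPKM in TAM-WT replicates 1 to 4 and 102, 92.8 and 89.3 FPKM in TAM-KO replicates 2 to 4. TAM-WT replicate 2 again stood with the TAM-KO libraries, so that the groups overlapped. The log2 fold change was 0.27 (SE 0.11, 95% interval 0.01 to 0.53) with an edgeR adjusted p of 0.148, so a rise of more than 1.45-fold lies outside the interval. Without TAM-WT replicate 2 the edgeR adjusted p was 0.0119, the only one of 17 alternatives in which Lta4h passed, in a range up to 0.341.

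Snrpf (chr10:93583029-93589658), a subunit of the Sm ring of spliceosomal snRNPs, had 87.6, 116, 81.9 and 89.0 FPKM in TAM-WT replicates 1 to 4 and 115, 109, 126 and 103 FPKM in TAM-KO replicates 1 to 4. The groups overlapped through TAM-WT replicate 2, which was above 3 of the 4 TAM-KO libraries. The log2 fold change was 0.18 (SE 0.10, 95% interval -0.04 to 0.40) and the edgeR adjusted p 0.24, and it passed only without TAM-WT replicate 2 (adjusted p 0.0247, in a range up to 0.473 over 17 alternatives). The estimated reads of Ccdc38 and Snrpf were not whole numbers, but their sum was whole in 8 of 8 libraries within 0.015, for example 51.05 and 812.95 reads in TAM-WT replicate 1. Reads were thus divided between the pair, and their split is uncertain. For Cdk17 and Elk3, which overlap by 3680 bases, each gene had whole reads in 7 of 7 libraries. As the use of strand is not given, reads in that overlap cannot be assigned with certainty either.

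Elk3, Cdk17 and Nedd1, on the far side of Lta4h, had means close to each other in both groups. Elk3 (chr10:93247415-93311159), an ETS factor that works with serum response factor, had a mean FPKM of 27.6 ± 1.73 over 4 TAM-WT libraries against 30.1 ± 1.32 over 3 TAM-KO libraries (SD), and a log2 fold change of 0.02 (SE 0.08, edgeR adjusted p 0.911). Cdk17 (chr10:93160876-93251094), a PCTAIRE kinase, had 14.9 ± 0.571 against 14.7 ± 1.86 FPKM (SD, n = 4 mice a group) and a log2 fold change of -0.16 (SE 0.09, edgeR adjusted p 0.241). Nedd1 (chr10:92684745-92722418), which brings gamma-tubulin to spindle and centrosome, had 9.82 ± 1.02 against 9.71 ± 0.591 FPKM (SD, n = 4 and 3), with a log2 fold change of -0.12 (SE 0.07, edgeR adjusted p 0.298). The upper ends of their 95% intervals were 1.14-fold, 1.02-fold and 1.03-fold, and none of the 3 passed the adjusted p in any of 17 alternatives. The sign for Elk3 turned in 2 of the 17.

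Ntn4 (chr10:93641049-93745972), a secreted netrin, had 0 to 3 reads in every library. Usp44 (chr10:93819969-93859425), a deubiquitinase of the spindle checkpoint, had 3.3 to 9.35 estimated reads, at 0.06 to 0.15 FPKM. No difference between the groups was detectable at this depth for either gene, and Ntn4 is given no fold change. The reads of Usp44 were also shared, since they summed to whole numbers with those of the overlapping Metap2 in 8 of 8 libraries within 0.015.

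**Figure D2:**
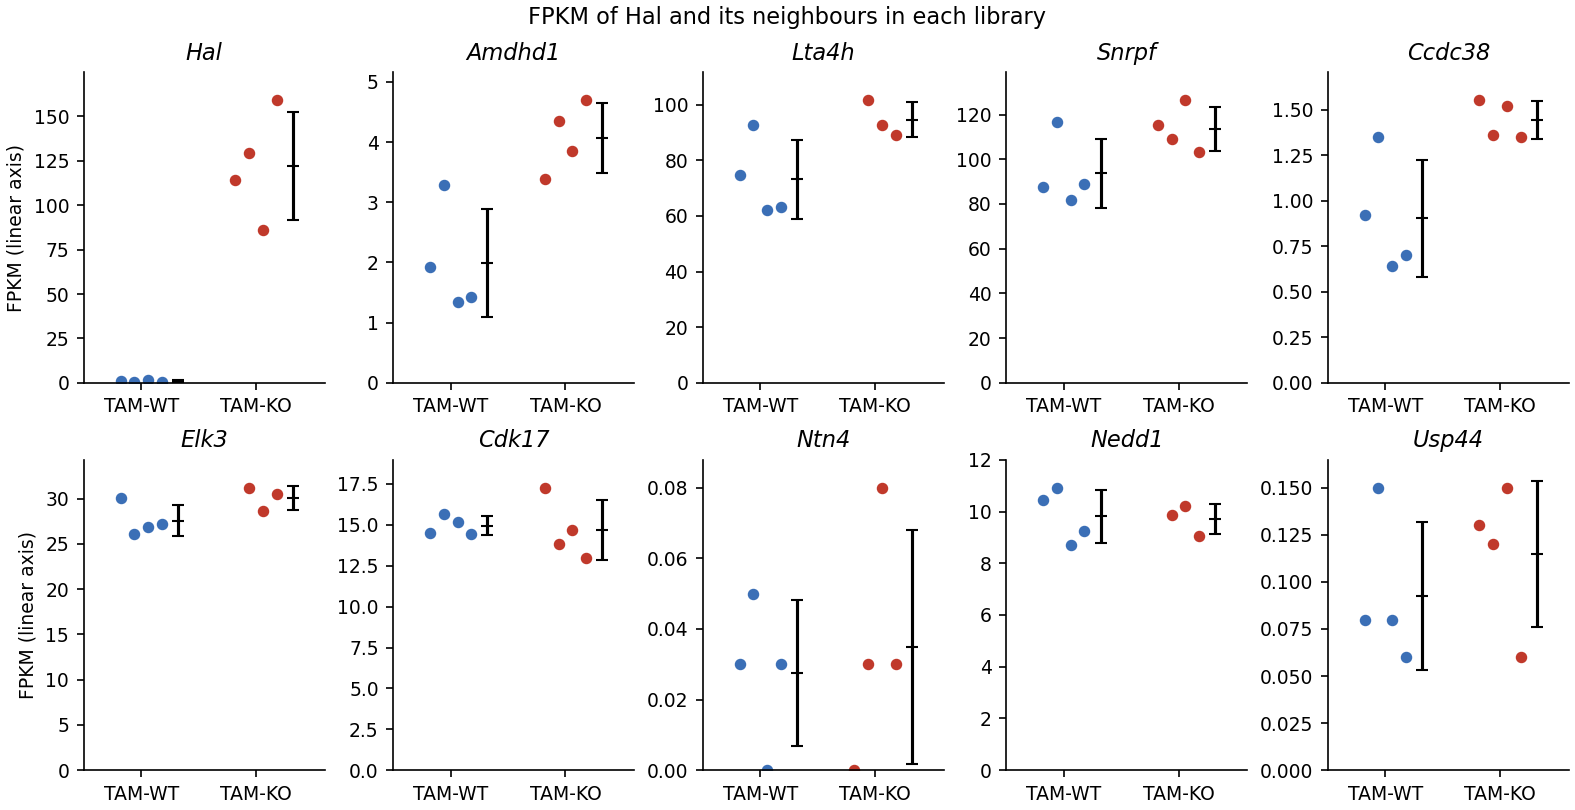
FPKM of each gene (y axis, linear and starting at 0, with a scale of its own for each gene) in the TAM-WT and TAM-KO libraries (points), with the mean and SD beside them; Lta4h, Elk3 and Nedd1 have 3 TAM-KO libraries. Hal reads 0.58 to 1.85 in TAM-WT and 85.9 to 159 in TAM-KO, whereas for Lta4h, Snrpf and Ccdc38 the highest TAM-WT point, replicate 2, reaches the TAM-KO points.

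The view was then widened to the 10 protein-coding genes on each side of Hal, from chr10:89872915 to 94221440. This window holds the 9 neighbours and 11 more genes: Anks1b, Apaf1, Ikbip, Slc25a3, Tmpo and Cfap54 before Hal, and Metap2, Vezt, Fgd6, Nr2c1 and Ndufa12 after it. Of 20 genes 18 were tested, and 0 were DEGs by edgeR or by DESeq2, against 2.53% of all genes; 1 passed the adjusted p alone, against 9.81%, and 7 had an unadjusted p under 0.05, against 30.7%. The 1 gene was Fgd6, a guanine nucleotide exchange factor, and it was lower in TAM-KO: 7.94, 7.42, 10.8 and 9.67 FPKM in TAM-WT replicates 1 to 4 and 5.1, 5.99, 6.78 and 6.03 FPKM in TAM-KO replicates 1 to 4, with a log2 fold change of -0.68 (SE 0.15, edgeR adjusted p 0.0326). Fgd6 no longer passed in 5 of 8 fits with a library left out (without TAM-WT replicate 3 or 4, or TAM-KO replicate 2, 3 or 4; adjusted p up to 0.125), and in those fits 0 of the 18 passed. With all libraries Fgd6 missed the adjusted p in limma on log2(FPKM + 1) (0.0615) and on log2(FPKM + 0.1) (0.059), so that it passed in 10 of 17 alternatives, in a range from 0.00134 to 0.125. Without TAM-WT replicate 2, 8 of the 18 passed, against 22.2% of all genes, and Amdhd1 was a DEG. The 8 were Cfap54, Lta4h, Amdhd1, Ccdc38, Snrpf, Vezt, Fgd6 and Ndufa12. 

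Cfap54, a gene for a protein of motile cilia, had 8.54, 10.7, 5.79 and 5.85 FPKM in TAM-WT replicates 1 to 4 and 10.3, 12.2, 12.1 and 9.02 FPKM in TAM-KO replicates 1 to 4. The groups overlapped, as TAM-WT replicate 2 lay among the TAM-KO values. Its log2 fold change was 0.41 (SE 0.17), with an unadjusted p of 0.0323 and an edgeR adjusted p of 0.126. Ndufa12, a subunit of respiratory complex I, had 73.3, 98.1, 67.9 and 67.7 FPKM in TAM-WT and 92.6, 98.3, 95.4 and 96.0 FPKM in TAM-KO, with TAM-WT replicate 2 again among the TAM-KO values and a log2 fold change of 0.22 (SE 0.10, edgeR adjusted p 0.16). The median log2 fold change of the 18 was 0.01, with 10 above 0 and 8 below, and that of all genes was 0.00. With 20 genes on each side, 35 were tested and 0 were DEGs by edgeR or DESeq2. At an unadjusted p under 0.05, 14 passed, against 30.7% of all genes. In edgeR 3 passed the adjusted p, against 9.81% of all genes, all lower in TAM-KO in that fit. The number passing was 9 in DESeq2 (18.2% of all genes), 7 with the replicate block (8.7%) and 15 without TAM-WT replicate 2 (22.2%). It was 0 without TAM-WT replicate 3 or 4 or TAM-KO replicate 2 or 3. In limma on log2(FPKM + 0.1) 2 of the 35 were DEGs, against 2.92% of all genes. Without TAM-WT replicate 2, edgeR gave 2 DEGs, against 4.21% of all genes.

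The rest of the histidine pathway was looked at from a list of its 4 enzymes. Uroc1, which takes up the product of Hal, had 2, 8, 3 and 2 reads in TAM-WT replicates 1 to 4 and 3, 10, 16 and 12 reads in TAM-KO replicates 1 to 4. At 0.04 to 0.32 FPKM it was too low to test, and Ftcd was listed without a value in all libraries. Hal was therefore at 122 FPKM in TAM-KO beside a mean of 0.207 FPKM for the enzyme after it and 4.07 FPKM for the enzyme after that.

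Of 15 genes of other histidine handling, 10 were tested and 1 was a DEG, against 2.53% of all genes. This was Hnmt, which methylates histamine, with 3.92 ± 0.430 FPKM against 2.17 ± 0.475 (SD, n = 4 mice a group) and a log2 fold change of -1.16 (SE 0.16, edgeR adjusted p 0.0124). The median of the list was -0.06. Of 16 folate one-carbon genes all were tested and 1 was a DEG, against the same 2.53%. Aldh1l1, formyltetrahydrofolate dehydrogenase, was at 3.48 ± 0.741 FPKM against 6.89 ± 1.98 in TAM-KO (SD, n = 4 mice a group), with a log2 fold change of 1.0 (SE 0.20, edgeR adjusted p 0.0263). Neither call held in every fit that left a library out: Hnmt had an edgeR adjusted p of 0.0668 without TAM-KO replicate 2 and 0.0588 without TAM-KO replicate 3, and Aldh1l1 was lost in 5 of 8 such fits, without TAM-WT replicate 1, 3 or 4 or TAM-KO replicate 2 or 3, with adjusted p up to 0.0977 and log2 fold change down to 0.85. With the series-wide value of TAM-KO replicate 1 in the fit, the log2 fold changes were -1.0 for Hnmt, just short of the threshold, and 0.87 for Aldh1l1, and neither was a DEG. Over 17 alternatives Hnmt was a DEG in 12 and Aldh1l1 in 9. The folate transporter Slc46a1 passed the adjusted p alone at -0.43 (SE 0.12, edgeR adjusted p 0.046), an adjusted p that was up to 0.119 without TAM-WT replicate 1, 3 or 4 or TAM-KO replicate 1, 2 or 3, and the median of the list was -0.02.

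Among 10 leukotriene genes, 9 were tested and 1 was a DEG, against 2.53% of all genes, and the median was -0.04. Alox5, the 5-lipoxygenase that makes the substrate of Lta4h, was lower in TAM-KO, at 2.40 ± 0.941 FPKM against 8.91 ± 1.72 (SD, n = 4 mice a group), with a log2 fold change of -1.94 (SE 0.33, edgeR adjusted p 0.0195). That adjusted p was 0.0522 without TAM-WT replicate 3 and 0.0825 without TAM-KO replicate 2. Ltc4s, which uses the same substrate to make leukotriene C4, had 8.14 ± 3.94 against 2.81 ± 1.52 FPKM (SD, n = 4 mice a group), and its edgeR adjusted p was 0.0673, though DESeq2 counted it as a DEG. Lta4h thus did not share the direction of the 5-lipoxygenase before it in the pathway, as its log2 fold change was 0.27; the difference between the 2 genes was not tested.

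The genes that work with the remaining neighbours gave few calls. In edgeR, 0 of 7 Sm ring genes (median -0.01), 0 of 6 ternary complex and SRF genes (median 0.02), 0 of 7 tested spindle checkpoint genes (median -0.02) and 0 of 19 gamma-tubulin ring and augmin genes (median -0.11) were DEGs, with 0, 1, 0 and 4 at an unadjusted p under 0.05, against 30.7% of all genes, and 0 DEGs in each in DESeq2. Tubgcp2 passed the adjusted p alone at -0.22 (SE 0.06, edgeR adjusted p 0.0452), and that adjusted p held only without TAM-WT replicate 2 and was up to 0.144 without any other library. Of 6 genes for PCTAIRE and PFTAIRE kinases and their partner cyclin Y (median -0.12) 1 was a DEG, against 2.53% of all genes. Cdk18, a close relative of Cdk17, was at 17.1 ± 4.20 FPKM against 6.75 ± 2.73 in TAM-KO (SD, n = 4 mice a group), with a log2 fold change of -1.46 (SE 0.30, edgeR adjusted p 0.0253). Of 7 tested netrin genes and receptors (median 0.16) 1 was a DEG, against the same share, the netrin receptor Unc5a, at 0.907 ± 0.227 against 0.448 ± 0.0806 FPKM (SD, n = 4 mice a group), with a log2 fold change of -1.04 (SE 0.25, edgeR adjusted p 0.0407). With a library left out, Cdk18 was lost in 4 of 8 fits (without TAM-WT replicate 3 or 4, or TAM-KO replicate 2 or 3; adjusted p up to 0.0873) and Unc5a in 5 of 8 (without any of those or TAM-WT replicate 2; adjusted p up to 0.153). Over 17 alternatives Cdk18 was a DEG in 13 and Unc5a in 8, the latter missing the adjusted p in limma on both scales and with the replicate block.

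Markers of other cells were read beside these values, since the sorted cells could hold other types, although the sort was for F4/80 as well as CD45 and the study's methods describe the sorted cells as nearly pure by flow cytometry; in bulk RNA, fewer cells of a type and less RNA per cell cannot be told apart. Melanoma genes were high in every library, although the sort was on CD45: the 8 markers, led by Pmel, summed to 3133, 5186, 2673 and 2592 FPKM in TAM-WT replicates 1 to 4 and to 5869, 5450 and 4581 FPKM in TAM-KO replicates 2 to 4. By this sum TAM-WT replicate 2 stood with the TAM-KO libraries. It was also the highest TAM-WT library for Amdhd1, Ccdc38, Lta4h and Snrpf, though for Amdhd1 it stayed below all TAM-KO values. The log2 fold changes of all 8 were above 0, with a median of 0.57 against 0.00 for all genes, 6 had an unadjusted p under 0.05, against 30.7%, and 0 were DEGs in edgeR or DESeq2. Gpnmb, which is in these sums at 494 to 813 FPKM, had a log2 fold change of 0.10 (SE 0.14), against 0.48 to 0.82 for the other markers. Whether its RNA came from melanoma cells was not tested. Of the 8, Sox10 passed the adjusted p at a log2 fold change of 0.76 (edgeR adjusted p 0.0295, and up to 0.0975 without TAM-WT replicate 3 or 4 or TAM-KO replicate 2 or 3), and none was at 0. Hal was at 0.58 FPKM in TAM-WT replicate 2 and at 129, 85.9 and 159 FPKM in TAM-KO replicates 2 to 4. The part of melanoma RNA in the values of Hal and of those 4 genes was not tested.

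T cell markers summed to 18.9, 4.02, 5.67 and 4.9 FPKM in TAM-WT replicates 1 to 4 and to 53.1, 42.8 and 20.2 FPKM in TAM-KO replicates 2 to 4. The most abundant was Cd3g, 9 of 10 had a value, the symbol Trac was not matched, 7 of 9 had a log2 fold change above 0, and in edgeR 0 of 9 passed the adjusted p with 8 at an unadjusted p under 0.05, against 30.7% of all genes, whereas DESeq2 gave 3 DEGs, against 3.53% of all genes. NK cell markers, led by Nkg7, summed to 19.0, 0.87, 1.72 and 2.56 FPKM and to 68.9, 57.8 and 21.2 FPKM in the same libraries, and 5 of 10 were tested. Nkg7 and Eomes were DEGs in edgeR and in DESeq2, 2 of 5 against 2.53% of all genes in edgeR, and 5 of 5 had an unadjusted p under 0.05, against 30.7%. Both calls were lost without TAM-WT replicate 3 or 4 or TAM-KO replicate 1, 2 or 3, at edgeR adjusted p up to 0.111 and 0.16, and that of Eomes also without TAM-KO replicate 4 (0.0612). The part of lymphocyte RNA in the values of Hal and its neighbours was not tested.

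Markers of skin and liver, the tissues best known for Hal, were low. Krt5, Krt1, Krt15, Trp63 and Lor were listed without a value, Krt14 had at most 3 reads, and the keratinocyte markers, led by Sfn, summed to 2.85 to 3.86 FPKM over 7 libraries. Alb, Serpina1a and Fgb were listed without a value, and the hepatocyte markers, led by Apoa2, summed to 0.55 to 1.92 FPKM. In both lists the sums overlapped between groups. Of the 2 keratinocyte genes with enough reads, Sfn had 1.83 to 2.48 FPKM in TAM-WT and 2.55 to 3.55 in TAM-KO, with a log2 fold change of 0.36 (SE 0.15, edgeR adjusted p 0.146). Sbsn had 0.67 to 1.21 FPKM and 0.24 to 0.45, but its reads overlapped (47, 29, 38 and 36 against 22, 40, 31 and 24, in the order of the replicates), and its log2 fold change was -0.45 (SE 0.25, 95% interval -1.01 to 0.12). Of these 2, 0 were DEGs in edgeR or DESeq2, against 2.53% of all genes in edgeR, and 1 had an unadjusted p under 0.05.

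The sums of the remaining marker lists overlapped between the groups over 7 libraries, which does not hold for each gene in them. Neutrophil markers, led by Mmp8, summed to 47.2 to 74.2 FPKM, with Ngp at 0, Elane listed without a value and 1 DEG of 5 tested, against 2.53% of all genes, S100a8 (a call that held only without TAM-KO replicate 1, with adjusted p up to 0.12 without any other library). Of the 5, 4 had an unadjusted p under 0.05, against 30.7% of all genes, 4 had a log2 fold change above 0, and the median was 0.69. In TAM-KO replicate 1, which these sums leave out, S100a8 was at 73.5 and S100a9 at 80.0 FPKM, against 9.13 to 15.8 and 5.09 to 13.3 FPKM in the other TAM-KO libraries. Mmp8 had a log2 fold change of -1.22 (SE 0.35, edgeR adjusted p 0.0603), and in DESeq2 S100a8, S100a9 and Mmp8 were DEGs. Dendritic cell markers, led by Ccr7, summed to 7.77 to 18.8 FPKM with 1 DEG of 8 tested, against 2.53% of all genes. This was Xcr1 (log2 fold change 1.78), with an adjusted p up to 0.137 without TAM-WT replicate 3 or 4 or TAM-KO replicate 1, 2 or 3. The Xcr1 call was also lost in edgeR with the replicate block (adjusted p 0.0843) and with gaps of TAM-KO replicate 1 filled (0.0506). Of 17 alternatives, Xcr1 was tested in 16 and a DEG in 7. Cd209a of the same list had a log2 fold change of -1.01 (SE 0.30, edgeR adjusted p 0.065), and in DESeq2 both were DEGs. B cell markers, led by Cd22, summed to 15.0 to 21.1 FPKM, with the symbol Ighm not matched. Mast cell and basophil markers, led by Kit, summed to 2.55 to 3.91 FPKM, with Mcpt8 at 0 and Fcer1a, Tpsb2 and Cma1 listed without a value and the symbol Tpsab1 not matched. Fibroblast markers, led by Col1a1, summed to 2.4 to 7.16 FPKM and endothelial markers, led by Egfl7, to 8.29 to 16.7 FPKM, with Pecam1 a DEG in DESeq2 but not in edgeR (adjusted p 0.099).

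**Figure D3:**
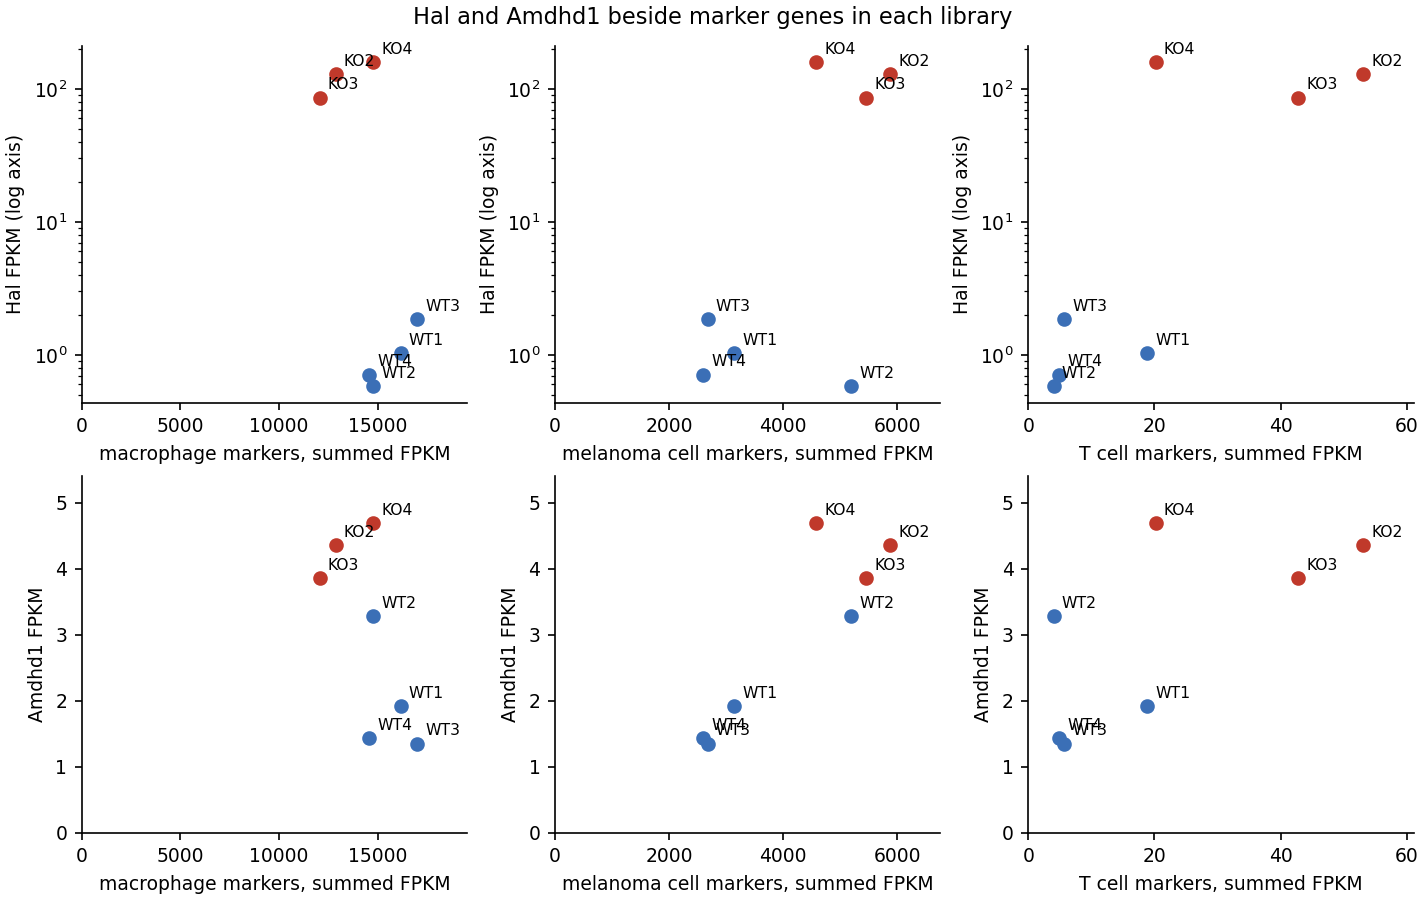
FPKM of Hal (upper row, y axis, log scale) and of Amdhd1 (lower row, y axis, linear) against the summed FPKM of macrophage, melanoma cell and T cell markers (x axes) in the 4 TAM-WT and 3 TAM-KO libraries that list every matched marker. Amdhd1 in TAM-WT replicate 2 (3.28 FPKM) lies below the TAM-KO points, in a library whose melanoma markers are also high (5186 FPKM), and Hal in that library is at 0.58 FPKM.

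The genes most like Hal over the 7 libraries that list every gene were sought by Pearson correlation of log2(CPM + 1), where CPM is counts scaled to library size and by TMM. These 7 points form 2 groups, so the coefficient mostly reads the difference between genotypes. The 5 highest of 12411 were Dnttip1 (0.9894, chromosome 2), Atn1 (0.9893, chromosome 6), Sik3 (0.9847, chromosome 9), Trmt1l (0.9805, chromosome 1) and H2ac24 (0.9802, chromosome 13). Their sizes of change were far from that of Hal, with fitted log2 fold changes of 0.06 for Dnttip1, which did not pass the adjusted p, and of 0.46, 0.33, 0.42 and 1.98 for the others in that order. Of the 7 tested neighbours Amdhd1 ranked 1193 (0.7562), Ccdc38 1812 (0.6904), Lta4h 2084 (0.6588), Snrpf 3630 (0.4486) and Elk3 5131 (0.1934), and Nedd1 and Cdk17 had -0.7966 and -0.8519.

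Promoters of Hal and of the genes next to it are shown because Hal differed so widely from genes a few kilobases away. RefSeq promoter sequences of GRCm38.p6, from 250 bases before to 50 bases after a gene start, were at hand for 7 of the 10 genes. For Hal, Lta4h, Elk3, Snrpf and Ntn4 that start is the one in the coordinates above. The windows of Amdhd1 and Ccdc38 hold the starts printed above but are placed on other starts. They therefore reach other distances before and after the printed starts. All 7 sequences were searched on both strands for TATAAA, TTCNNNGAA (the GAS element of STAT factors), GAGGAAGT (a PU.1 site), TGANTCA (an AP-1 site) and GGGCGG (the GC box). Of 27025 promoters, 14.2%, 8.47%, 3.28%, 7.93% and 35.9% hold these motifs, in that order. Matches are in capitals below, in the direction of each gene, with Lta4h at chr10:93453146-93453445 on the plus strand, Hal at chr10:93488518-93488817 on the plus strand, Amdhd1 at chr10:93539984-93540283 on the minus strand and Ccdc38 at chr10:93540382-93540681 on the plus strand.
Lta4h: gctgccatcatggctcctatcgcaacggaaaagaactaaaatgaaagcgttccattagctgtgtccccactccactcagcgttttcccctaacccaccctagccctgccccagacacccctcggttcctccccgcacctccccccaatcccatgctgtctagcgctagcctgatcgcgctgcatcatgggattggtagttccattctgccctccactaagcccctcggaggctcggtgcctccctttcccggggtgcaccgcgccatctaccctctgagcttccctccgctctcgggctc
Hal: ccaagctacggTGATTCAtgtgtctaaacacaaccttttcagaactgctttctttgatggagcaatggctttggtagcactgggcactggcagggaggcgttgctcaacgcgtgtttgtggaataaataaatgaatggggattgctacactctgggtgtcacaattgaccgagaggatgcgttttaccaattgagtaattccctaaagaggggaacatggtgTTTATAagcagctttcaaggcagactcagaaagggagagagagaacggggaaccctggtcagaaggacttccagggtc
Amdhd1: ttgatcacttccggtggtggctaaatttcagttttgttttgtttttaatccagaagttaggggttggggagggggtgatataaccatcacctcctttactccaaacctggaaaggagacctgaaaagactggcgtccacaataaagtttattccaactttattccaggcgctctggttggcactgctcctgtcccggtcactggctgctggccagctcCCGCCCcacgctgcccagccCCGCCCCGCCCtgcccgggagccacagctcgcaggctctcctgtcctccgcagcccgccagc
Ccdc38: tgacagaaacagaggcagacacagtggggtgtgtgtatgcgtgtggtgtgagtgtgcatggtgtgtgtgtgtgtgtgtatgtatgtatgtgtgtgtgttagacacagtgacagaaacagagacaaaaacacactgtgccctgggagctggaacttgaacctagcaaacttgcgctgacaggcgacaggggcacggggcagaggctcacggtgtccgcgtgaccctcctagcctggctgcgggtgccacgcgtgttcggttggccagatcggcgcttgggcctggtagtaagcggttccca

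Hal alone of the 7 held TATAAA, on the opposite strand and beginning 28 bases before the gene start. It alone held TGANTCA, 239 bases before the start. Of all promoters 14.2% held TATAAA and 7.93% held TGANTCA, so 1 match in 7 for each does not set Hal apart. GGGCGG was found for Amdhd1, Elk3 and Ntn4, with 3 matches in the promoter of Amdhd1. The promoters of Lta4h, Ccdc38 and Snrpf held none of the 5 motifs, and TTCNNNGAA and GAGGAAGT were found in 0 of the 7. In base composition, G and C made up 47.7% of the Hal promoter, with 7 CpG, against 60.7% and 16 CpG for Lta4h and 57.0% and 12 CpG for Amdhd1, and the median of all promoters was 52.7% with 7 CpG. These matches are letters in a window, and no binding was measured.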

How the data were processed

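Samples were grouped by the genotype in the labels. The authors aligned the reads and deposited RSEM expected counts, estimated per gene and not normalized, and FPKM values, which are relative to gene length and mapped reads. The submitters' processing notes name HISAT2 2.0.4, Bowtie2 2.2.5, RSEM 1.2.12 and GRCm38.p6; how strand was used is not given in the sources used here. The authors' comparison columns hold ratios, p-values and q-values and were not used, nor was TPM.

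The table of TAM-KO replicate 1 lacks 5311 rows, and 1 broken row and 629 values that belong to other rows were left out. Fits used 8 libraries for genes with 8 values and 7 libraries for the rest, with 1 joint adjustment. Expected counts were rounded; the tests ran on edgeR 4.0.16 under R 4.3.3 (TMM, filterByExpr, glmQLFTest) and Benjamini-Hochberg adjustment; 12412 of 16786 genes passed the filter. A 95% interval uses the fitted SE and a t distribution with degrees of freedom solved from the fitted p. Motifs were chosen after values were seen, and 1 more was searched and left out. Alternatives used DESeq2 1.42.0, limma 3.58.1 on log2(FPKM + 1) and log2(FPKM + 0.1), other filters, windows and thresholds, a replicate block and each library left out. Neighbours were the nearest 10 protein-coding genes on each side in RefSeq. Strands came from GENCODE M21, since the deposited strand differed for 2 of the 10 genes, Elk3 and Amdhd1. Named genes were the 10, the window genes, Colec11, list genes that were called or are described, the 5 most like Hal, and the most abundant and absent markers; Ltc4s, Slc46a1, Tubgcp2, Sox10, S100a8, Nkg7, Eomes, Xcr1, S100a9, Cd209a, Pecam1 and Sbsn were added after their values were seen. The members, lists and markers were chosen with earlier results of these data known.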

Additional observations from a re-analysis of the deposited data

Results flagged for a closer look

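Of 38 groups of 4 libraries checked over the 10 genes and the window genes, 1 had a library far from the other 3, where chance gives about 1 in 20. Ikbip, a neighbour 2390 kb from Hal, had 8.57 FPKM in TAM-KO replicate 4 and 12.6 to 13.2 FPKM in the other TAM-KO libraries. Its gap to the nearest library was 0.867 of the range of the 4 values. No value of Hal or of its 9 neighbours was flagged by this measure in the groups checked. Those groups leave out Lta4h, Elk3 and Nedd1 in TAM-KO, with 3 values each. TAM-WT replicate 2, the highest TAM-WT library for Amdhd1, Ccdc38, Lta4h and Snrpf, was thus not flagged for them.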

How the results depend on the processing

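The number of DEGs among all genes, 314 in edgeR, was 200 with limma on log2(FPKM + 1), 438 with DESeq2, 210 with at least 10 counts in every library, 666 at a fold change of at least 1.5 and 1218 by adjusted p alone, and with 1 library left out from 28, leaving TAM-KO replicate 3 out, to 523, leaving TAM-WT replicate 2 out. It was also 59 without TAM-WT replicate 3, 164 without TAM-WT replicate 4 and 32 without TAM-KO replicate 2. DEGs split into 175 higher and 139 lower, and into 140 and 60 with limma on log2(FPKM + 1) and 257 and 105 on log2(FPKM + 0.1), where the median of all genes lay at 0.09 and 0.11 in place of 0.00. DEGs among the 10 genes numbered 1, the selected Hal, but 2 on log2(FPKM + 0.1), where Amdhd1 joined, and 1 to 2 with 1 library left out. DEGs among the 20 window genes numbered 0, but 1 on log2(FPKM + 0.1), 1 by adjusted p alone, 1 at a fold change of at least 1.5 and 0 to 1 with 1 library left out. DEGs among the 94 list genes beside the 10 numbered 5, but 2 with limma on log2(FPKM + 1), 3 on log2(FPKM + 0.1), 3 where the series-wide table filled gaps of TAM-KO replicate 1 (Alox5, Cdk18 and Unc5a), and 0 to 5 with 1 library left out. Of the 5 genes most like Hal, 4 were shared with log2(CPM + 0.1). The cause of these shifts was not tested.

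The replicate numbers gave no clear sign of pairing, as deviations of same-numbered libraries correlated at -0.428, 0.0411, -0.29 and 0.303. These values alone cannot show that same-numbered libraries were unmatched. With the replicate block, 314 genes were DEGs, with Hal as 1 of the 10 genes, 0 of the window genes and 3 of the 94 list genes. Depth limits Ntn4 and Usp44, which are too low to test, and reads were also few for Ccdc38, Amdhd1 and, in TAM-WT, Hal.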
